A study of Mus musculus with 40 samples.

Results

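Chemokines are small secreted proteins that guide cells along a concentration gradient, and their receptors are G protein-coupled receptors on the cells that respond. Ligands are grouped by the spacing of the first cysteines into CC, CXC, XC and CX3C families, and the CXC ligands that carry the tripeptide ELR before the first cysteine chiefly attract neutrophils. In the brain, a few ligands such as Cx3cl1, Cxcl12 and Cxcl14 are made constitutively by neurons, glia or vessels, whereas most others are induced in microglia, astrocytes, endothelium or infiltrating leukocytes during inflammation and recruit T cells, B cells and monocytes.

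The genes described here are the rows of the count table whose mouse symbol begins with Ccl, Cxcl, Ccr or Cxcr and a number, together with Xcl1, Xcr1, Cx3cl1 and the atypical receptors named Ackr, provided that their reads summed to 20 or more across the libraries. Of 63 rows with such a name, 57 passed, out of 28449 genes with that sum and 40853 rows in all. The 6 that did not pass were Cxcr1, Ccl20, Ackr1, Cxcl3, Cxcl15 and Ccl26. The 57 comprised 22 CC ligands, 8 CXC ligands without ELR, 3 CXC ligands with ELR, 2 CX3C or XC ligands, 11 CC receptors, 5 CXC receptors, 1 XC receptor, 3 atypical receptors and 2 Ccl19 pseudogenes. Without the libraries labelled KO, 56 of the 57 would still have passed.

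RNA-seq was performed on hippocampus from 40 mice, 18 females and 22 males, each injected in the hippocampus with adeno-associated virus. All mice were floxed for both genes of the histone variant H2A.Z (H2afz and H2afv, listed in the table as H2az1 and H2az2) according to the study's methods, whereas the labels give the control mice as wild type. The Myc control received a vector with a Myc tag and no Cre (3 females, 4 males). The group called KO received Cre driven by the neuronal synapsin promoter together with the Myc tag vector (4 females, 4 males), and its labels read KD rather than KO. The WT (4 females, 5 males), KA (4 females, 4 males) and KQ (3 females, 5 males) groups received the same Cre with Myc-tagged H2A.Z.1 that was unaltered, had lysines replaced by alanine to prevent acetylation, or had them replaced by glutamine to mimic it, each from a CMV promoter. According to the study's methods, the Myc control vector was diluted with PBS to match titer and volume. All other groups received the Cre virus mixed with a second virus. KO-labelled and Myc mice therefore differ in Cre and in the added Cre virus as well as in the floxed genes. The age of the mice was not given in the sources used here.

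Libraries held between 24342921 and 45982772 counts, with a median of 36417112. Levels are given as CPM, the reads of a gene scaled to a common library size. Total reads of the targeted genes did not separate the libraries labelled KO from Myc. H2az1 averaged 32.2 ± 3.58 CPM (SD, n = 3) in Myc and 31.0 ± 3.67 (n = 4) in KO-labelled females, and 32.8 ± 4.38 (n = 4) and 31.5 ± 9.37 (n = 4) in males, with adjusted p = 0.828 and 0.841. H2az2 averaged 23.2 ± 3.42 and 28.1 ± 1.55 CPM in females (adjusted p = 0.0609) and 23.2 ± 2.50 and 25.5 ± 4.13 in males (adjusted p = 0.350). The paper itself reports lower H2afz mRNA with Cre alone and lower H2afv mRNA in all Cre groups. It also reports a strong loss of H2A.Z in cultured floxed neurons given Cre. The paper holds that the small decrease in tissue likely reflects the low sensitivity of bulk tissue to a loss in neurons only. The tissue also holds cells that do not express synapsin-driven Cre, and the group is called KO-labelled from here on. Hippocampal neuron markers were present in every library: the summed level of 9 of them ranged from 10590.5 to 10862.9 CPM in Myc females and from 10573.4 to 11557.9 in Myc males. It ranged from 4071.5 to 7341.2 in KO-labelled females and from 4889.2 to 8288.1 in KO-labelled males. Because this is bulk tissue, fewer cells of a type and less RNA per cell cannot be told apart, and the same holds for more cells and more RNA. Ttr, a choroid plexus marker, was above 1000 CPM in KO-labelled female mice 14 and 33, WT female mouse 20 and KQ female mouse 17. The counts without these 4 mice are given where they differ. Whether choroid plexus was carried into these dissections was not tested. No source says whether the mice of a group shared a litter or an injection day.

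Most chemokine and receptor genes were higher in KO-labelled mice than in Myc mice, in both sexes. In females 33 of 57 rose and 3 fell at an adjusted p under 0.05, against 18.1% of all genes tested that rose and 16.5% that fell. In males 35 rose and 4 fell, against 17.2% and 14.4% of all genes. The members' median log2 fold change stood at 2.66 for females (all genes tested, 0.00) and at 2.81 for males (all genes tested, 0.03). With genes that had no read in any Myc library set at the lower bound that 3 counts allow, the female median was 2.58 and the male median 2.81. Every KO-labelled female lay above every Myc female for 36 genes (18.8% of all genes tested) and every KO-labelled male above every Myc male for 33 (15%), while 3 genes in females (16.4% of all genes tested) and 5 in males (13.2%) lay wholly below. All 33 genes that rose in females also rose in males. Ccl1 and Ccl24 rose in males with adjusted p = 0.00314 and 0.0196, and in females their adjusted p was 0.0520 and 0.166. The male call of Ccl24 was lost without KO-labelled mouse 21 (adjusted p = 0.0776) or Myc mouse 22 (0.0505) or 23 (0.0670), and Ccl1 passed in females without KO-labelled mouse 13 (0.0386) or 33 (0.0471). It also passed there without the mice with high Ttr (0.0375), with a term for the range of mouse numbers (0.0465) and with edgeR's own count filter (0.0441).

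**Figure D1:**
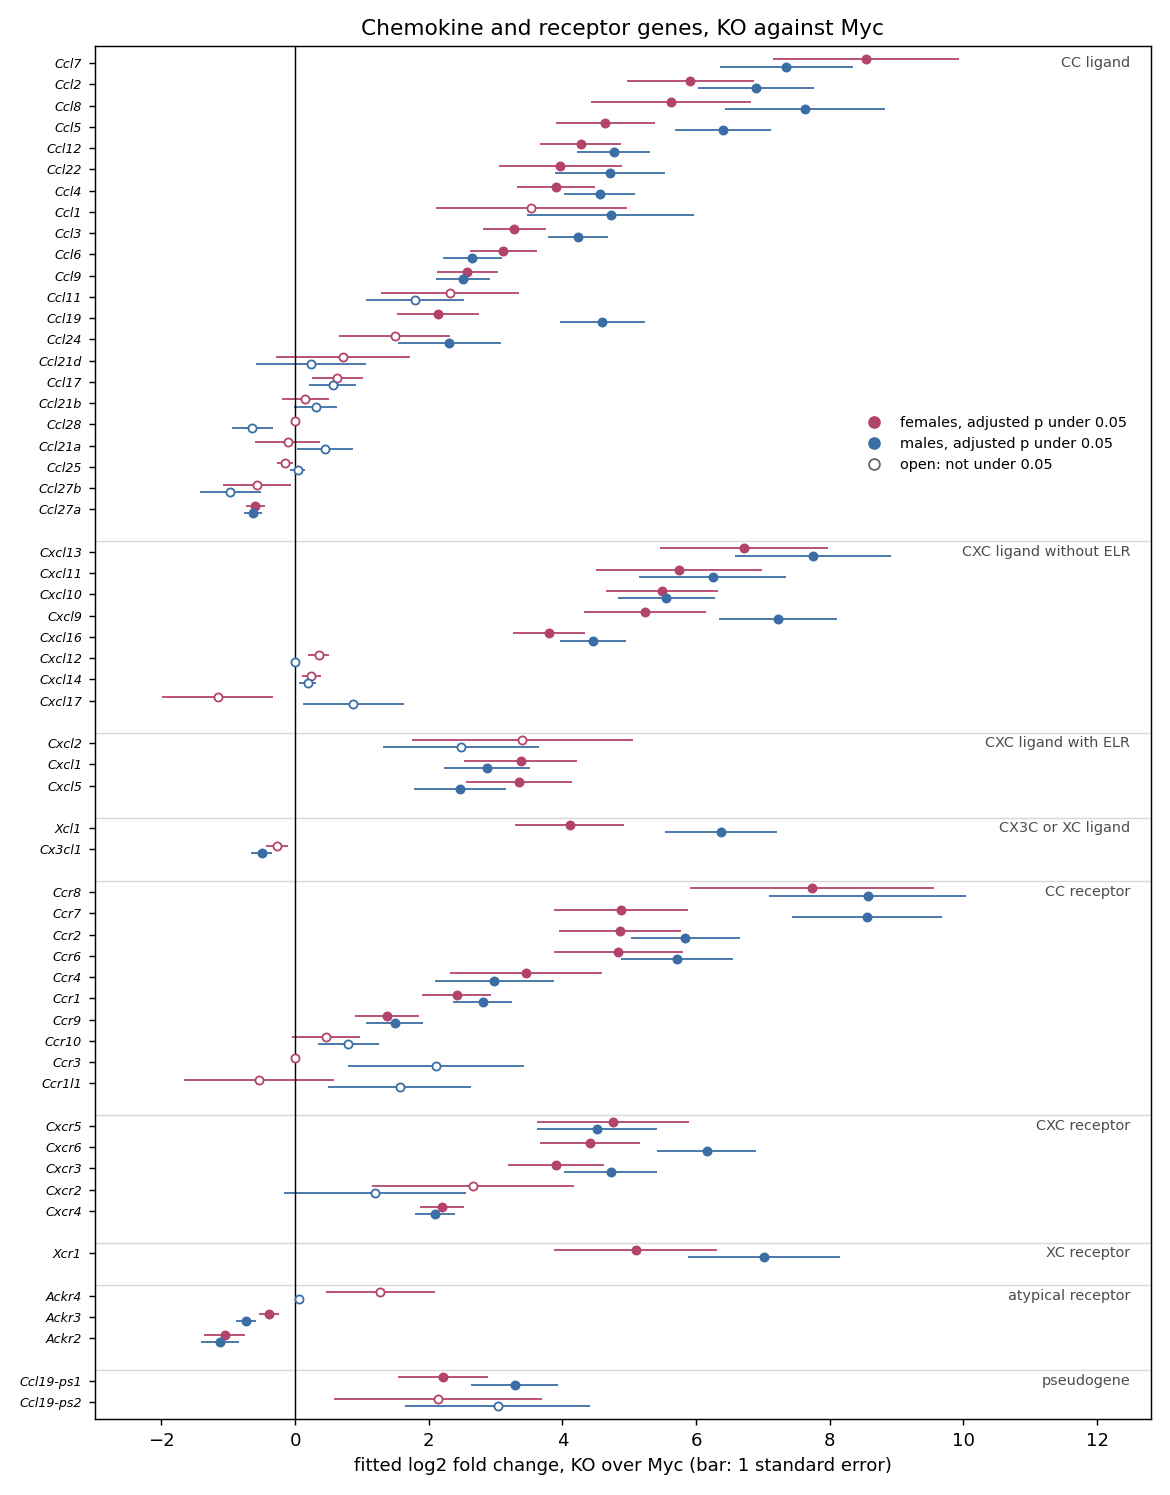
Fitted log2 fold changes (x axis) of 56 of the 57 genes, KO-labelled over Myc, in females (red) and males (blue), grouped by role. Bars are 1 standard error (none where the unadjusted p was above 0.9) and filled points have an adjusted p under 0.05. Points of genes with 3 or fewer Myc reads, such as Ccr8, depend on the prior count of the fit. Of the points drawn, 32 filled ones lie to the right of 0 and 3 to the left in females, and 34 and 4 in males.

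The CXCR3 ligands Cxcl9, Cxcl10 and Cxcl11, which interferons induce and which attract activated T cells and NK cells, were among the genes with the largest rise. Cxcl9 was counted at 2.92, 0.119 and 1.32 CPM in the Myc females and at 33.2, 39.2, 30.4 and 134 CPM in the KO-labelled females (mice 13, 14, 33 and 34). In males it was counted at 0.679, 1.59, 0.293 and 0.862 CPM in Myc and at 55.2, 59.2, 278 and 115 CPM in KO-labelled mice. The groups did not overlap in either sex, and the highest value belonged to mouse 34 in females and mouse 21 in males. For Cxcl9 the log2 fold change was 5.23 ± 0.91 (SE) in females (adjusted p = 4.38e-05) and 7.23 ± 0.88 in males (adjusted p = 1.27e-07). Cxcl10 rose from a mean of 1.57 ± 1.43 CPM (SD, n = 3) to 76.6 ± 40.6 (n = 4) in females and from 2.20 ± 1.73 (n = 4) to 102 ± 44.4 (n = 4) in males, a log2 fold change of 5.49 ± 0.84 (adjusted p = 7.24e-06) and 5.55 ± 0.73 (adjusted p = 4.35e-07). Cxcl11 was counted at 2.50, 2.70, 1.85 and 27.3 CPM in KO-labelled females, so that mouse 34 set most of the group's mean, against 0.290, 0.119 and 0 in Myc. In males it was at 5.08, 9.35, 27.5 and 1.17 CPM against at most 0.254 in Myc. Cxcl11 rose in both sexes (adjusted p = 0.000554 and 4.48e-05), but when only the compared groups entered the fit the female value was 0.0697. An antisense gene overlaps Cxcl11 by 1582 exon bases, and the strand setting of the counting was not stated. Cxcr3, the receptor that these ligands share, was counted at 3.26, 2.77, 1.26 and 4.82 CPM in KO-labelled females against 0.314, 0.158 and 0.0852 in Myc, and at 2.16, 1.94, 3.81 and 1.86 in KO-labelled males against 0.0293 to 0.127 in Myc. Its log2 fold change was 3.90 ± 0.72 in females (adjusted p = 6.44e-05) and 4.72 ± 0.70 in males (adjusted p = 1.73e-06).

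**Figure D2:**
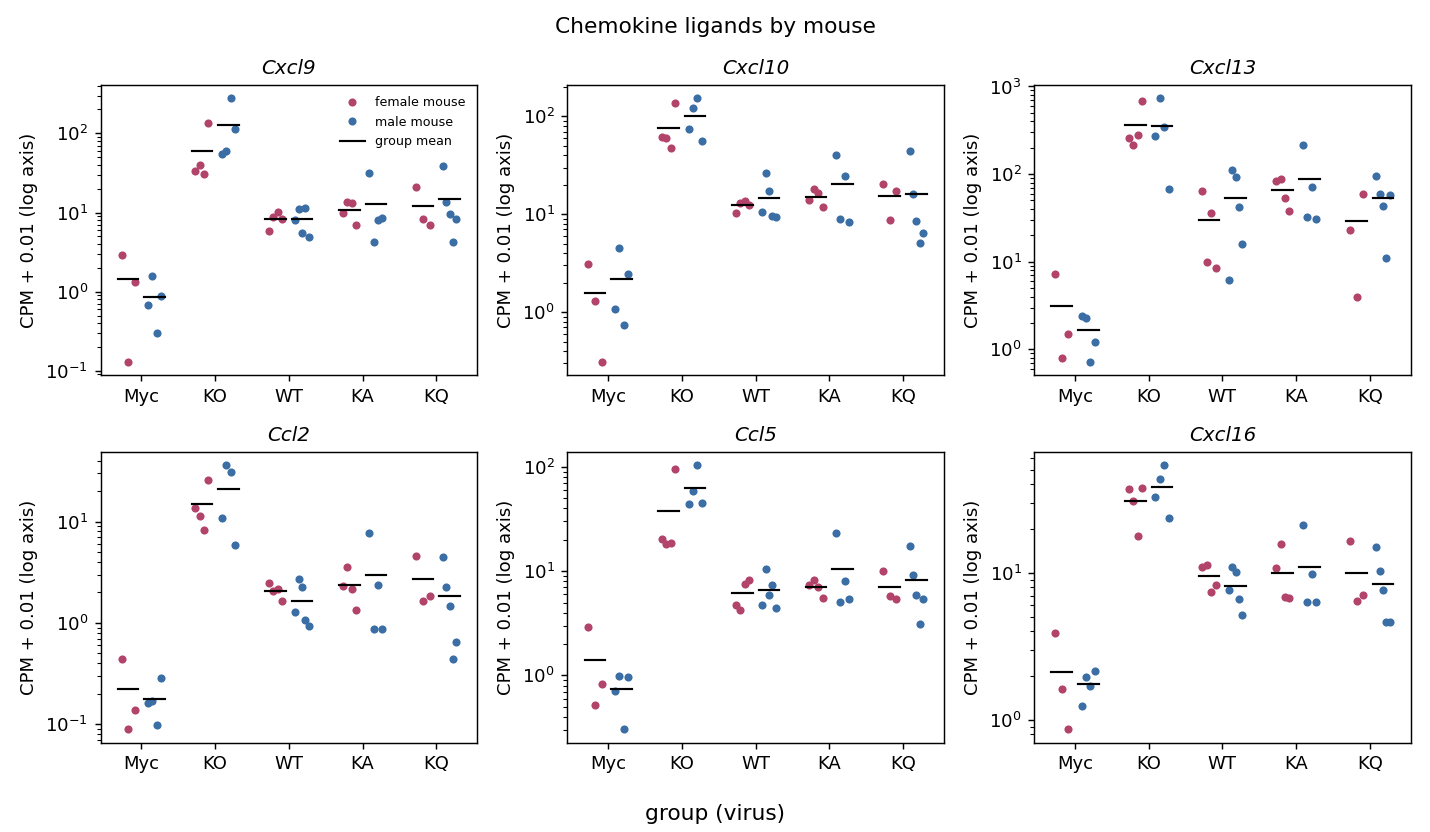
Level of 6 ligands in each mouse (y axis, CPM + 0.01 on a log axis) by group (x axis), females in red and males in blue, with the group mean as a line. For each of the 6 genes every KO-labelled mouse lies above every Myc mouse of its sex, and the WT, KA and KQ means lie between the Myc and KO-labelled means.

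Cxcl13, which attracts B cells through Cxcr5, had the highest mean level of the 57 genes in KO-labelled mice of each sex. In females it was counted at 258, 216, 276 and 689 CPM, against 7.15, 0.791 and 1.49 in Myc. In males it was at 273, 736, 347 and 68.2 CPM, against 2.41, 2.25, 0.704 and 1.22 in Myc. The groups were far apart in both sexes although the KO-labelled mice differed among themselves by several-fold, and in male 42 the level was below those of Cx3cl1, Cxcl9 and Cxcl14 (155, 115 and 79.0 CPM). The log2 fold change was 6.72 ± 1.25 in females (adjusted p = 0.000102) and 7.75 ± 1.17 in males (adjusted p = 4.52e-06). Cxcr5 was counted at 0.646, 0.602, 0.123 and 2.51 CPM in KO-labelled females and rested on 3 reads in all Myc females, and it rose in both sexes (adjusted p = 0.00124 and 0.000151). Per kilobase of exon, Cxcl13 stood at 313 ± 192 CPM in KO-labelled females and 310 ± 243 in KO-labelled males (SD, n = 4 each) and ranked first of the 57 in both, followed by Ccl5 with 36.9 ± 36.8 and 60.9 ± 27.2 and by Cxcl10 with 34.0 ± 18.02 and 45.2 ± 19.7. The error of the lower ranks was large: the female SD of Ccl5 was as large as its mean. In Myc mice the first rank per kilobase belonged to Cx3cl1, with 40.6 ± 3.11 in females (n = 3) and 46.5 ± 2.52 in males (n = 4), followed by Cxcl14, Ccl27a and Cxcl12, and Cxcl13 stood at 2.73 ± 3.03 and 1.43 ± 0.715.

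Among the CC ligands, 11 of 22 rose and 1 fell in females, and 13 rose and 1 fell in males. Of all genes tested, 18.1% rose and 16.5% fell in females, and 17.2% and 14.4% in males. Ccl2, Ccl7 and Ccl12 attract monocytes through Ccr2 and related receptors. Ccl2 was counted at 13.7, 11.4, 8.30 and 25.6 CPM in KO-labelled females against 0.435, 0.0791 and 0.128 in Myc, and at 10.8, 35.8, 31.0 and 5.92 in KO-labelled males against 0.0880 to 0.279 in Myc. No KO-labelled mouse came near the Myc range, and the log2 fold change was 5.92 ± 0.95 (adjusted p = 1.43e-05) and 6.90 ± 0.87 (adjusted p = 2.01e-07). Ccl7 had 1 read in the 3 Myc females against 830 in the 4 KO-labelled females, and 7 against 1292 in males (adjusted p = 1.52e-05 and 6.39e-07). Ccl8 rose from 0.0908 ± 0.0972 to 5.39 ± 2.76 CPM in females and from 0.0385 ± 0.0469 to 7.57 ± 3.61 in males (adjusted p = 0.000436 and 7.54e-06). Ccl12 was the more even of the monocyte attractants, with 28.5, 24.1, 18.3 and 25.5 CPM in KO-labelled females against 0.426 to 2.27 in Myc, and 13.6 to 37.7 in KO-labelled males against 0.478 to 1.56 in Myc. Ccr2, the receptor of classical monocytes, was counted at 4.25, 4.40, 2.53 and 11.0 CPM in KO-labelled females and at 4.62, 7.99, 17.5 and 8.12 in males, against at most 0.338 in any Myc mouse, and rose in both sexes (log2 fold change 4.86 ± 0.91 and 5.84 ± 0.82, adjusted p = 9.98e-05 and 1.13e-06).

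Ccl5, Ccl3 and Ccl4 attract T cells, monocytes and other leukocytes, and Ccl5 is produced by activated T cells and NK cells as well as by glia. Ccl5 was counted at 20.1, 18.3, 18.7 and 94.6 CPM in KO-labelled females against 2.90, 0.514 and 0.809 in Myc, and at 43.7, 58.6, 103 and 44.9 in males against 0.293 to 0.984. Its log2 fold change was 4.64 ± 0.74 (adjusted p = 1.39e-05) and 6.402 ± 0.72 (adjusted p = 2.86e-08). Ccl3 rose to 2.75 to 6.41 CPM in females and 1.86 to 5.51 in males, and Ccl4 to 4.91 to 8.29 and 2.51 to 10.2, from below 0.8 CPM in every Myc mouse. Unlike Ccl5, neither Ccl3 nor Ccl4 stood out in female mouse 34. Ccr1, which binds Ccl3 and Ccl5, rose from 0.149 to 0.866 CPM in females and from 0.162 to 1.15 in males (adjusted p = 0.000305 and 4.41e-06). Ccl6 and Ccl9, relatives that bind Ccr1, rose by a log2 fold change of 3.12 ± 0.50 and 2.58 ± 0.45 in females and of 2.66 ± 0.43 and 2.51 ± 0.41 in males.

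**Figure D3:**
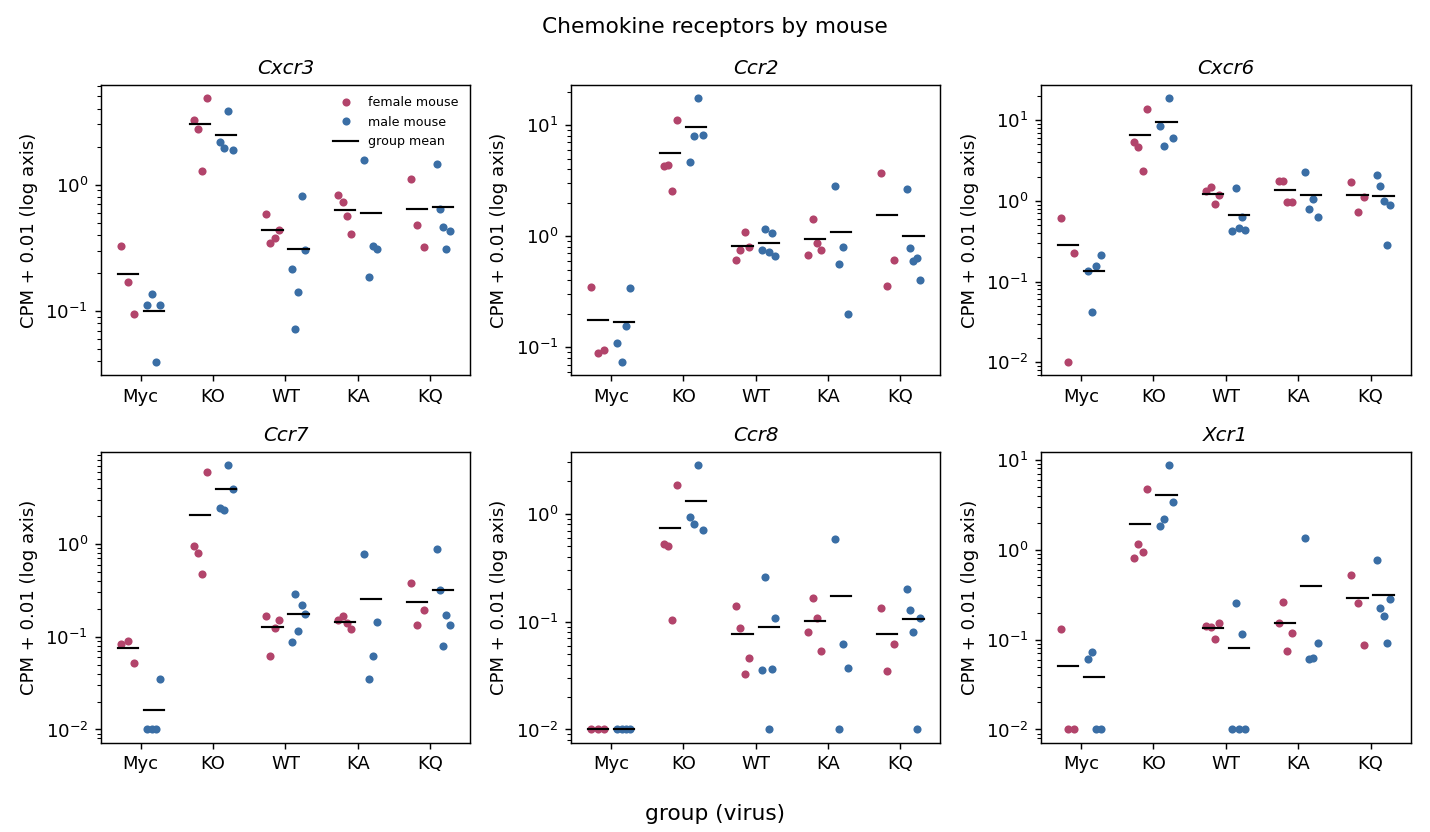
Level of 6 receptors in each mouse (y axis, CPM + 0.01 on a log axis) by group (x axis), females in red and males in blue, with the group mean as a line. Ccr8 was at 0 in all 7 Myc mice, and Cxcr6 was between 2.31 and 18.7 CPM in the 8 KO-labelled mice against at most 0.604 in Myc.

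Several receptors of lymphocytes and dendritic cells were near 0 in Myc mice. Ccr8, found on subsets of T cells, had no read in any Myc library and was counted at 0.512, 0.491, 0.0926 and 1.85 CPM in KO-labelled females and 0.919, 0.791, 2.81 and 0.691 in males, which is at least 22.1-fold and 62.8-fold higher against a floor of 3 counts over the Myc group (adjusted p = 0.00133 and 3.30e-05). Ccr7, which guides T cells and dendritic cells to lymph nodes, was at 0.943, 0.781, 0.463 and 6.02 CPM in KO-labelled females against 0.0426 to 0.0791 in Myc. In males, 1 read in the 4 Myc libraries stood against 564 in the KO-labelled libraries, and Ccr7 rose in both sexes (adjusted p = 0.000255 and 2.49e-07). Its ligand Ccl19 rose from 0.430 to 1.83 CPM in females (log2 fold change 2.14 ± 0.62, adjusted p = 0.00656) and from 0.106 to 2.70 in males (4.60 ± 0.64, adjusted p = 4.74e-07), and without Myc female mouse 11 the female value was adjusted p = 0.0512. The other Ccr7 ligand, Ccl21a, was at 0.364 and 0.342 CPM in females and 0.406 and 0.561 in males (adjusted p = 0.889 and 0.468). Ccl19 and Ccl21a have near-identical copies in the same cluster (Ccl19-ps1, Ccl19-ps2, Ccl21b and Ccl21d), so reads may have been shared among them or dropped. Xcl1, made by NK cells and CD8 T cells, and its receptor Xcr1, found on cross-presenting dendritic cells, both rose: Xcr1 was counted at 0.808, 1.16, 0.926 and 4.77 CPM in KO-labelled females and 1.81, 2.21, 8.65 and 3.37 in males, against at most 0.121 in any Myc mouse (adjusted p = 0.00138 and 1.12e-05). Xcl1 averaged 1.35 and 1.98 CPM in the KO-labelled groups against 0.0676 and 0.0206 in Myc (adjusted p = 0.000145 and 1.60e-07). A gene on the other strand overlaps Xcr1 by 1071 exon bases.

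Cxcl16, a membrane-anchored ligand of phagocytes, and its receptor Cxcr6 of tissue T cells also rose together. Cxcl16 was counted at 36.9, 31.0, 17.9 and 37.9 CPM in KO-labelled females against 3.89, 1.62 and 0.852 in Myc, and at 23.6 to 53.8 in males against 1.23 to 2.13 (log2 fold change 3.80 ± 0.54 and 4.46 ± 0.50, adjusted p = 2.63e-06 and 2.23e-08). Exons of Med11 and Zmynd15 overlap Cxcl16 on the other strand. Cxcr6 was at 5.39, 4.64, 2.31 and 13.8 CPM in KO-labelled females and 8.43, 4.77, 18.7 and 6.05 in males, with no Myc mouse above 0.604 (adjusted p = 2.77e-05 and 6.01e-08). Cxcr4, the receptor of Cxcl12, which leukocytes, microglia and neural progenitors carry, rose from 2.56 ± 0.230 to 11.8 ± 4.36 CPM in females and from 2.56 ± 0.318 to 10.9 ± 0.568 in males (adjusted p = 3.45e-06 and 7.45e-07). The receptors Ccr4, Ccr6 and Ccr9 rose in both sexes as well. Genes on the other strand overlap Ccr6 by 1145 exon bases and Ccr9 by up to 1876. Ccr4 lost its female call without Myc mouse 31 (adjusted p = 0.0682), Myc mouse 32 (0.0637) or KO-labelled mouse 34 (0.0661). Ccr9 lost it without Myc mouse 31 (0.121), KO-labelled mouse 13 (0.0528) or KO-labelled mouse 34 (0.0745), and with only the compared groups fitted (0.0581).

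The neutrophil attractants behaved unevenly. Cxcl5 was counted at 18.02, 14.8, 5.83 and 7.11 CPM in KO-labelled females against 1.74, 0.554 and 0.937 in Myc (adjusted p = 0.00129), and at 10.4, 8.37, 0.935 and 5.32 in KO-labelled males against 0.603 to 1.64 in Myc (adjusted p = 0.00579). Mouse 21, with the highest Cxcl9 of all males, had the lowest Cxcl5 of the KO-labelled males, within the Myc range. Cxcl1 rose from 0.0403 to 0.568 CPM in females and from 0.107 to 0.843 in males (adjusted p = 0.00181 and 0.000608). Cxcl2 and the receptor Cxcr2 stayed at a few reads per library: Cxcl2 had 0 and 5 reads in all Myc and KO-labelled females and 1 and 8 in males, and Cxcr2 had 1 and 13, and 2 and 5, and neither passed the test in either sex. Of 6 neutrophil markers tested, 1 was higher in KO-labelled mice in each sex (18.1% and 17.2% of all genes tested), Csf3r, which microglia also express. It was at 6.94 to 13.8 CPM in Myc females and 32.6 to 61.0 in KO-labelled females, and at 6.11 to 6.97 and 35.7 to 53.5 in males, and made up nearly all of the summed level of the list (7.35 to 14.2 and 33.3 to 61.6 CPM in females, 6.63 to 7.48 and 36.1 to 54.2 in males). The list's median log2 fold change was 0.65 in females and -0.52 in males, and the other 5 markers (S100a8, S100a9, Mpo, Retnlg and Camp) stood at no more than 0.377 CPM in any mouse of these groups. The part of neutrophils in these values was not tested.

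The ligands that dominated the Myc libraries changed little or fell. Cxcl12 was counted at 67.1, 44.4 and 53.6 CPM in Myc females and 77.0, 83.4, 66.5 and 54.5 in KO-labelled females, with overlapping groups (log2 fold change 0.35 ± 0.16, adjusted p = 0.0911). Without Myc mouse 11 or KO-labelled mouse 34 the adjusted p of Cxcl12 in females was 0.0269 or 0.0300. In males Cxcl12 averaged 55.8 ± 1.68 and 56.0 ± 3.51 CPM (adjusted p = 0.991). Cxcl14 averaged 78.5 and 92.8 CPM in females and 79.9 and 90.9 in males (adjusted p = 0.195 and 0.301). Cx3cl1, the neuronal ligand of the microglial receptor Cx3cr1, was at 160, 174 and 149 CPM in Myc females and 94.98, 121, 159 and 161 in KO-labelled females (adjusted p = 0.217). In males it was at 171, 195, 187 and 185 in Myc and fell to 111, 95.8, 160 and 155 (log2 fold change -0.50 ± 0.15, adjusted p = 0.0109), a call that was lost without KO-labelled mouse 4 (adjusted p = 0.0730). By mouse number, the lower KO-labelled values were those of females 13 and 14 and males 3 and 4. Females 33 and 34 and males 21 and 42 stood at 155 to 161 CPM. Myc mice 11 and 1 stood at 160 and 171. The KO-labelled mice with the lowest Cx3cl1, female 13 and male 4, also had the lowest summed neuron markers, 4071.5 and 4889.2 CPM. These markers summed to 4071.5 to 6078.6 CPM in mice 13, 14, 3 and 4 and to 6893.7 to 8288.1 in the other KO-labelled mice. The part of that marker loss in the Cx3cl1 values was not tested. Ccl27a fell in both sexes, from 49.5, 49.9 and 46.6 CPM to 27.9, 28.7, 40.4 and 32.3 in females and from 46.5 to 53.1 CPM to 24.8 to 36.5 in males (log2 fold change -0.59 ± 0.14 and -0.63 ± 0.13, adjusted p = 0.00118 and 0.000262). Ccl27a has a near-identical copy, Ccl27b, and an overlapping gene on the other strand.

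The atypical receptors bind chemokines without G protein signalling and remove them from the tissue, and 2 of the 3 fell. Over all genes tested, 16.5% fell in females and 14.4% in males. Ackr2, a scavenger of inflammatory CC ligands, was counted at 1.06, 1.54 and 2.04 CPM in Myc females and 0.539, 0.982, 0.740 and 0.681 in KO-labelled females, and at 1.31 to 1.80 in Myc males and 0.487 to 0.821 in KO-labelled males. The groups did not overlap, and the log2 fold change was -1.05 ± 0.31 (adjusted p = 0.00657) and -1.12 ± 0.29 (adjusted p = 0.00241). Without Myc mouse 32 the female value was adjusted p = 0.0695. Ackr3, a scavenger of Cxcl12, was at 14.4, 12.7 and 10.9 CPM in Myc females against 9.44 to 10.0 in KO-labelled females (log2 fold change -0.39 ± 0.16, adjusted p = 0.0498). That female value lay at the threshold and was lost without any of 6 of the 7 mice, with adjusted p from 0.0682 to 0.234. In males Ackr3 fell from 14.7, 16.0, 10.4 and 12.2 CPM to 6.43, 7.47, 8.11 and 10.1 (log2 fold change -0.73 ± 0.15, adjusted p = 0.000141). Ackr4 was at 0.445 and 1.05 CPM in females, with the KO-labelled mean carried by mice 14 and 33, the ones with high Ttr, and did not pass the test (adjusted p = 0.236 in females and 0.973 in males).

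**Figure D4:**
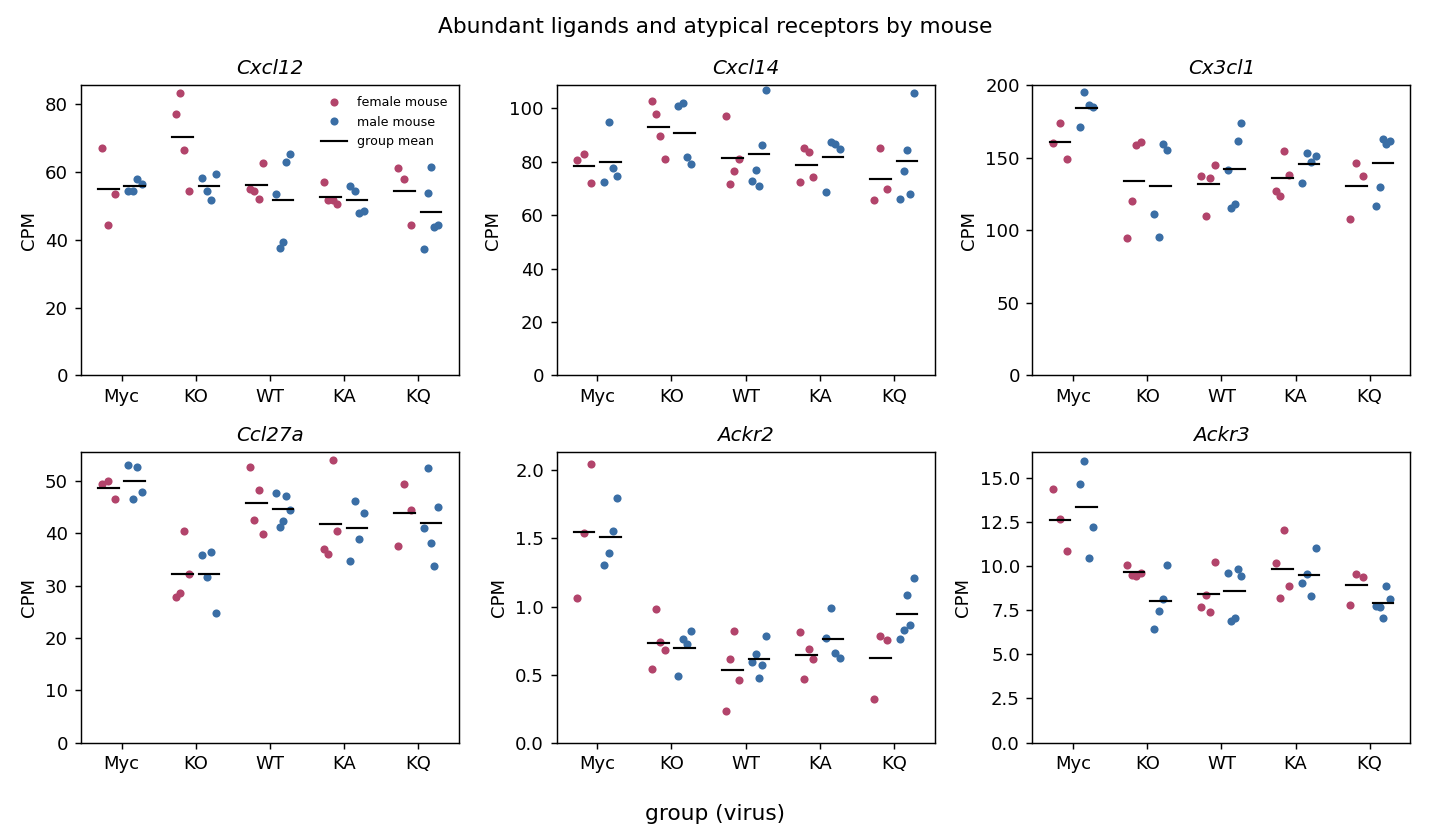
Level of 4 abundant ligands and 2 atypical receptors in each mouse (y axis, CPM from 0) by group (x axis), females in red and males in blue, with the group mean as a line. Ccl27a is lower in KO-labelled mice than in the other groups, with means of 32.3 and 32.2 CPM, whereas Ackr2 and Ackr3 are lower than Myc in KO-labelled, WT, KA and KQ means alike.

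Markers of leukocytes rose beside these genes. Of all genes tested, 18.1% rose and 16.5% fell in females, and 17.2% rose and 14.4% fell in males. Of 12 T and NK cell markers, all rose in both sexes, and their log2 fold changes had medians of 4.56 (females) and 6.37 (males). Their summed level ranged from 2.98 to 6.45 CPM in Myc females and 25.6 to 155 in KO-labelled females, and from 2.67 to 3.37 and 62.3 to 228 in males. The mice with the highest Cxcl9 and Ccl5, female 34 and male 21, were also those with the highest T and NK cell sum, 155 and 228 CPM. All 8 B and plasma cell markers rose in both sexes, and their sum in KO-labelled mice ranged from 43.9 to 490 CPM in females and 152 to 273 in males, against at most 26.7 in Myc. Female mouse 34, with the highest Cxcl13 of the females, had a B and plasma cell sum of 187 CPM, below those of mice 13 and 14 with 490 and 465. All 10 microglial markers rose in both sexes, their sum going from 296 to 382 CPM in Myc females to 737 to 1107 in KO-labelled females, and from 274 to 358 to 748 to 1315 in males. Of 8 markers of border macrophages and monocytes, 5 rose in females and 6 in males, with sums of 3.48 to 5.90 CPM in Myc females against 15.6 to 61.1 in KO-labelled females, and 3.19 to 5.78 against 35.5 to 54.2 in males. Of 7 astrocyte markers 6 rose in each sex. Of 6 dendritic cell markers 3 rose and 1 fell in each sex, and of 7 endothelial markers 6 rose in females and 3 in males. Choroid plexus markers rose in 9 of 10 cases in females and in 0 of 10 in males, and without the 4 mice with high Ttr 34 of the 57 genes rose in females and 35 in males. No marker among the genes tested was at 0 in all mice of any of these groups. Ly6g, a listed neutrophil marker, was not among the genes tested. The part of these cell types in the chemokine and receptor values was not tested.

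Of 61 genes of the chemokine pathway outside the 57, 40 rose and 7 fell in each sex, against 18.1% and 16.5% of all genes in females and 17.2% and 14.4% in males. The share of the 61 that rose was 65.6%, and the share that fell was below that of all genes. The fractalkine receptor Cx3cr1, a microglial gene not covered by the naming rule, rose from 65.7 ± 9.72 to 229 ± 63.3 CPM in females and from 60.2 ± 5.85 to 214 ± 41.9 in males (adjusted p = 1.52e-07 and 6.89e-09). Of 39 signalling genes, 23 rose and 7 fell in females and 24 rose and 6 fell in males, so that the share that fell, 17.9% and 15.4%, was near that of all genes. Dock8 and Dock2, exchange factors that drive leukocyte movement, Plcb2, a phospholipase of blood cells, and, among the receptor relatives, Cmklr1, the chemerin receptor, were among the risers with the smallest p, with log2 fold changes of 2.09 ± 0.21, 2.85 ± 0.31, 2.15 ± 0.24 and 2.39 ± 0.24 in females and 2.48 ± 0.19, 3.28 ± 0.28, 2.79 ± 0.22 and 2.31 ± 0.21 in males. Among those that fell were the receptor kinases Grk2, Grk3 and Grk6, which switch receptors off, with log2 fold changes of -0.43, -0.64 and -0.56 in females and -0.30, -0.43 and -0.46 in males. Also lower were Rgs14, a regulator enriched in hippocampal neurons, with -1.10 and -1.31, and Ptk2b, with -0.69 and -0.69. Neuron markers fell beside them, 8 of 9 in females and 7 of 9 in males. Of 15 adhesion genes used by arriving leukocytes, 12 rose in females, and 11 rose and 1 fell in males. Selplg, the selectin ligand, rose by 1.26 ± 0.13 and 1.51 ± 0.11 on the log2 scale.

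Genes that sit side by side in the genome did not all move together. Over all genes tested, 18.1% rose in females and 17.2% in males. In the GENCODE annotation of GRCm39, Cxcl9, Cxcl10 and Cxcl11 lie within chr5:92469206-92513344 and all 3 rose in both sexes. Ccl5, Ccl9, Ccl6, Ccl3 and Ccl4 lie within chr11:83416602-83555509, and all 5 rose in both sexes. Of Ccl2, Ccl7, Ccl11, Ccl12, Ccl8 and Ccl1 at chr11:81926397-82196516, 4 rose in females and 5 in males, with Ccl11 the one called in neither. At chr4:41769467-42773995 the pattern was mixed: of 8 genes Ccl19 and Ccl19-ps1 rose and Ccl27a fell in both sexes. The female call of Ccl19-ps1 was lost without Myc mouse 31 (adjusted p = 0.0615) or 32 (0.0572) and with only the compared groups fitted (0.0610). Of Cxcl5, Cxcl1 and Cxcl2 at chr5:90907186-91053797, 2 rose in each sex. In the cluster at chr8:95471226-95538664, Ccl22, a ligand of Ccr4, rose from 0.356 to 5.63 CPM in females and from 0.344 to 9.04 in males. Its neighbour Ccl17, which binds the same receptor, averaged 0.732 and 1.14 in females and 0.704 and 1.02 in males (adjusted p = 0.204 and 0.232). Whether Ccl22 and Ccl17 differed in their change was not tested. Cx3cl1, in the same cluster, was called lower in males only.

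Promoter sequences were matched by symbol for 41 of the 57 genes in a RefSeq table of build GRCm38.p6, each 300 bases long from 250 before to 50 after the start. Shown here are the neighbours Cxcl9 and Cxcl10, which rose together, the neutrophil attractant Cxcl1, and Ccl19. Capitals mark matches on either strand to GAAA, any 2 bases, then GAAA (an ISRE-type motif, the element that interferon-regulated factors bind) or to GGGA, any 2 bases, then TTCC (a kB-type motif, the element that NF-kB binds).
Cxcl10 (chr5:92348840-92349139, minus strand): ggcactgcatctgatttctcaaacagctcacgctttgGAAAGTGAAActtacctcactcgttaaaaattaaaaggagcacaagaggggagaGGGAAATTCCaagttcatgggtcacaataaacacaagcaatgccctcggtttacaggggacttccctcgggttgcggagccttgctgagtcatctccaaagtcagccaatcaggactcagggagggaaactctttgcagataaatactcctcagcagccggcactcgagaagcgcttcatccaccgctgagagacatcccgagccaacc
Cxcl9 (chr5:92328030-92328329, minus strand): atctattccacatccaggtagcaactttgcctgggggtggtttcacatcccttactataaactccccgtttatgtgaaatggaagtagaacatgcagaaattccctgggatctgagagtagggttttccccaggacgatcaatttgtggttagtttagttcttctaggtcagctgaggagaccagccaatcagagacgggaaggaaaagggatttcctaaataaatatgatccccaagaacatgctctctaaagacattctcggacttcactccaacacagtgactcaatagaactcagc
Cxcl1 (chr5:90890995-90891294, plus strand): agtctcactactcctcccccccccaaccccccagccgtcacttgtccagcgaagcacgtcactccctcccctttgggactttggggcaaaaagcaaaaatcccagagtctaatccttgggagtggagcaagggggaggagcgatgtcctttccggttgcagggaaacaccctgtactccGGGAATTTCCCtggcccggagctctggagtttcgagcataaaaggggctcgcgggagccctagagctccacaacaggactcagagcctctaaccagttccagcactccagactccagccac
Ccl19 (chr4:42756316-42756615, minus strand): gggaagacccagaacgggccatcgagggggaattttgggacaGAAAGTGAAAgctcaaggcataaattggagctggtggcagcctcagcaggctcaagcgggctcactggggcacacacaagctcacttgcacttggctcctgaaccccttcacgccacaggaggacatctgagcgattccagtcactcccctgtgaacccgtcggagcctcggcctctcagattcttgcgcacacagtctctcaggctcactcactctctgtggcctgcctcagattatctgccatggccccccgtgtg
Cxcl10 held both motifs, at positions -213 and -159 from the start, Ccl19 held the ISRE-type one at -208, Cxcl1 held the kB-type one on both strands as a single stretch at -71, and Cxcl9 held neither in this window. The ISRE-type motif was found in 3 of the 41 promoters (Cxcl10, Ccl19 and Cxcl14, of which Cxcl14 did not pass the test), against 3.99% of 27025 genes in the table. The kB-type motif was found in 5 (Cxcl10, Cxcl1, Cxcl2, Ccl1 and Ccr3), against 1.63%. TTC, any 3 bases, then GAA (a GAS-type motif, the element of STAT factors), was found in 4 (Ccl17, Ccr1l1, Cxcl14 and Ccr6), against 9.55%. Of the 22 matched genes that rose in both sexes, 2 held the ISRE-type, 2 the kB-type and 1 the GAS-type motif, so most of them held none of these letters in this window.

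Replacement with H2A.Z.1 in any form was accompanied by lower levels of most of the raised genes than in KO-labelled mice. With WT, 27 genes in females and 33 in males were lower than in KO-labelled mice, against 9.17% and 12% of all genes tested. With KA the counts were 27 and 27 (9.62% and 9.94%), and with KQ they were 25 and 32 (7.63% and 12.7%). The comparisons share the KO-labelled mice, and the female KQ count was the least stable: it was 12 without KO-labelled mouse 34, 2 without KQ mouse 37, 5 without KQ mouse 38, and 2 when only the compared groups entered the fit. With only the compared groups the KA counts were 17 and 11.

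Cxcl9 fell to 5.77, 8.71, 10.2 and 8.22 CPM in WT females, 9.78, 13.6, 13.0 and 6.97 in KA females and 20.8, 8.23 and 7.02 in KQ females, all below the lowest KO-labelled female at 30.4. In males it was at 4.90 to 11.4 CPM in WT, 4.23 to 31.1 in KA and 4.21 to 38.2 in KQ, again below the lowest KO-labelled value of 55.2. The log2 fold change of WT over KO-labelled was -2.85 ± 0.69 in females (adjusted p = 0.00454) and -3.95 ± 0.65 in males (adjusted p = 4.20e-05). Cxcl13 was more variable: WT males were at 6.20, 110, 92.8, 42.0 and 15.8 CPM and overlapped the KO-labelled males, whose lowest value was 68.2. It was lower with WT and KQ in both sexes (adjusted p = 0.00717 and 0.0159, and 0.0192 and 0.0144), while for KA the adjusted p was 0.0550 and 0.112. For 31 of the 33 genes raised in both sexes, all 3 replacement means lay between the Myc and KO-labelled means, in females and likewise in males. These 33 genes were chosen by their rise from Myc to KO-labelled in the same mice. The share among all genes chosen that way was not computed, so no conclusion is drawn from this count.

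**Figure D5:**
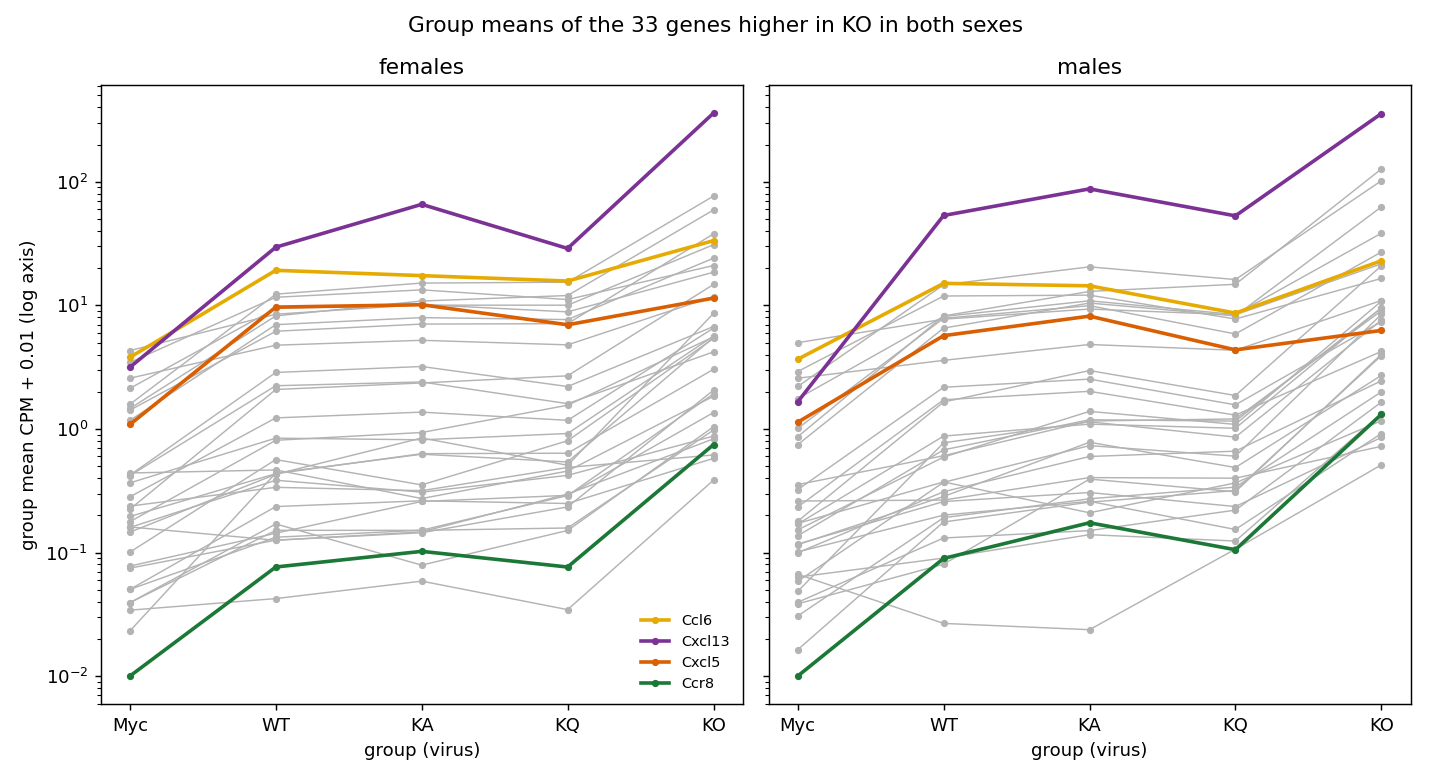
Mean level (y axis, CPM + 0.01 on a log axis) of the 33 genes that rose in both sexes in each group (x axis), 1 line a gene, females left and males right, with no error shown. For 31 of the 33 in each sex the WT, KA and KQ means lie between Myc and KO-labelled. The 33 were chosen by their rise in these same mice. Cxcl5, in colour, has WT means of 9.67 and 5.68 CPM beside KO-labelled means of 11.4 and 6.26.

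For a few raised ligands the difference between replacement and KO-labelled mice mostly did not pass the test. Cxcl5 averaged 9.67, 10.1 and 6.96 CPM in WT, KA and KQ females against 11.4 in KO-labelled females, and 5.68, 8.17 and 4.35 in males against 6.26 (adjusted p against KO-labelled from 0.547 to 0.912). It stayed higher than in Myc in WT and KA mice of both sexes and in KQ females (adjusted p from 0.00739 to 0.0472), while in KQ males the value was 0.0859. Ccl6 averaged 19.2, 17.4 and 15.7 CPM in WT, KA and KQ females against 33.4 in KO-labelled and 3.79 in Myc females. Against KO-labelled mice, Ccl6 and Ccl9 were lower only with KQ in males (adjusted p = 0.00733 and 0.0254), and the other comparisons of these genes gave adjusted p from 0.102 to 0.476. Ccl3 and Ccl4, their neighbours, were lower in all 3 replacement groups in males and with KQ in females. Whether these genes differ from the others in their response was not tested.

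Against Myc, 10 genes were higher with WT in females and 14 in males (5.87% and 3.66% of all genes tested), 15 and 22 with KA (4.42% and 5.15%), and 12 and 17 with KQ (3.59% and 3.48%). Among those higher in all 6 comparisons were Cxcl10, Cxcl16, Ccl2, Ccl12, Ccl9, Ccl3 and Ccl4. Cxcl10, for example, was counted at 10.4 to 13.6 CPM in WT females and 9.42 to 26.4 in WT males, above the Myc maxima of 3.12 and 4.54, with log2 fold changes of 2.85 ± 0.78 and 2.76 ± 0.66 (adjusted p = 0.0207 and 0.00917). These female counts depended on single mice and on the fit. Without Myc mouse 31 or 32 the WT count was 3 or 5 and the KA count 6 or 5, without KA mouse 16 the KA count was 8, and without KQ mouse 17, Myc mouse 31 or Myc mouse 32 the KQ count was 0, 0 or 1. KQ mouse 17 was also one of the mice with high Ttr, and without those mice the KQ count was 0. The other KQ females were mice 37 and 38, so mouse 17 was alone in the low range of mouse numbers. With only the compared groups fitted the female KA count was 8 and the female KQ count 3. DESeq2 gave higher counts throughout, with 17, 17 and 16 genes for WT, KA and KQ females and 20, 25 and 25 for males. In males the WT count was 9 and the KQ count 11 without Myc mouse 23, the KA count 13 without KA mouse 5, and the KQ count 9 without KQ mouse 8. KA male 5 and KQ male 8 had the highest T and NK cell sums of their groups, 31.3 and 23.9 CPM, against 8.01 to 10.4 and 7.21 to 13.8 in the others. The T and NK cell sum had a median of 12.01, 12.6 and 9.88 CPM in WT, KA and KQ females and 9.97, 9.94 and 10.6 in males, between Myc and KO-labelled, and its part in these values was not tested.

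Among the genes that fell, Ccl27a and the scavenger receptors differed in their values under replacement. Ccl27a averaged 45.9, 41.8 and 43.9 CPM in WT, KA and KQ females and 44.6, 40.9 and 42.1 in males, and was higher than in KO-labelled mice with WT in both sexes (log2 fold change 0.51 ± 0.13 and 0.47 ± 0.13, adjusted p = 0.00681 and 0.00690), with KQ in both sexes (adjusted p = 0.0327 and 0.0256) and with KA in females (adjusted p = 0.0490), while the male KA value was 0.0728. Ackr2 averaged 0.534, 0.646 and 0.619 CPM in WT, KA and KQ females and 0.615, 0.758 and 0.948 in males, against 1.55 and 1.51 in Myc. It was lower than in Myc in all these comparisons (adjusted p from 0.00210 to 0.0217) except KQ males, where the adjusted p was 0.142. Ackr3 was lower than in Myc in WT mice of both sexes (adjusted p = 0.0155 and 0.00311) and in KA and KQ males (0.0283 and 0.000734), with values of 0.147 and 0.0658 in KA and KQ females. Neither scavenger receptor differed from KO-labelled mice at the threshold in any replacement group.

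The acetyl-defective and acetyl-mimic forms were not told apart by these genes. In KA against KQ, 0 of 57 genes passed in females and 0 in males, with edgeR and with DESeq2 (which gave 9 genes no adjusted p in males), and 0% of all genes tested passed in either sex. At an unadjusted p under 0.05 there was 1 gene in each sex, Ccl1 in females (log2 difference -2.99, adjusted p = 1.00) and Ccl21a in males (1.33, adjusted p = 0.361). The log2 difference of KA over KQ was -0.15 ± 0.71 for Cxcl9 and -0.03 ± 0.64 for Cxcl10 in females, and -0.18 ± 0.62 and 0.35 ± 0.56 in males. These differences were smaller than their errors.

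The rise in KO-labelled mice was not shown to differ between the sexes. In the test of the difference itself, 0 of 57 genes and 0% of all genes passed by edgeR, and 0 of 57 by DESeq2 (which gave 4 genes no adjusted p). At an unadjusted p under 0.05 there was 1 gene, Ccl19, whose log2 fold change was 2.46 ± 0.88 smaller in females than in males (adjusted p = 0.721). Between Myc females and Myc males 0 of 57 genes passed by edgeR, against 0.0457% of all genes, and 0 by DESeq2 (which gave 9 genes no adjusted p). By edgeR 2 had an unadjusted p under 0.05, Ccl19 (0.430 against 0.106 CPM, adjusted p = 0.711) and Ccr3, which had few reads.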

How the data were processed

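RNA-seq libraries were made from hippocampal RNA of 40 mice, and the groups follow the labels. The deposited table holds raw counts per gene, which the authors made with Rsubread align and featureCounts on GRCm39. FastQC (0.11.9) and DESeq2 (1.38.3) are named in the submitters' processing notes, and the deposited normalised table was not used here. The strand setting was not given in the sources used here. Besides the overlaps named above, other genes overlap Cxcl5, Cxcl10, Cxcr5, Ccl3, Ccl25, Ccl27b, Ccl28, Ccl19-ps2, Ccr7, Cx3cl1, Cx3cr1, Xcl1 and Ackr4. Here, genes with a count sum under 20 were removed, and edgeR (4.0.16, R 4.3.3) was used with TMM factors and the quasi-likelihood test, 1 mean for each of the 10 groups of sex and virus, all 40 libraries in 1 fit, and Benjamini-Hochberg adjustment over all 28449 genes. A gene is called at an adjusted p under 0.05 at any fold. Standard errors are the log2 fold change divided by the square root of F. CPM use TMM-scaled library sizes, and CPM per kilobase use the GENCODE exon union. The scripts were tested on simulated data. Reads carry no molecular identifiers, and genes with few reads are limited by counting error.

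The counts cover all 57 genes, and values of 1 of them are not reported here. The members and lists were chosen with earlier results of these data known. Every gene is accounted for by role; values by mouse were given for textbook ligand and receptor partners, for the 5 largest called changes in each direction and sex in KO against Myc, for every gene lower in KO, and for up to 4 pathway genes a direction and sex. Ccl1, Ccl6, Ccl9, Ccl11, Ccl17, Ccl22, Ccl24, Ccr1l1, Ccr3, Ccr4, Ccr6, Ccr9, Cxcl5 and Ackr4 were named in addition after their values were seen. Alternatives were DESeq2 (1.42.0), its size factors in edgeR, other count filters, only the compared groups, no robust estimation, a term for the range of mouse numbers, and fits without single mice or without those with high Ttr. No 2 libraries of a group agreed within sampling noise.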

Additional observations from a re-analysis of the deposited data

Results flagged for a closer look

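Single mice stood far from the rest of their group in 35 of 240 groups of 4 or 5 mice tested over the named genes. The measure was the gap to the nearest mouse as a share of the group's range. Its cut-off flags about 1 in 20 groups only for independent, normally distributed values. Levels here are skewed, the same mice recur across genes, and a group with reads in only 1 mouse is always flagged. The number expected by chance is therefore not known. In KO-labelled females mouse 34 was highest for Cxcl13 (689 CPM), Cxcl10 (137), Cxcl9 (134), Ccl5 (94.6), Cxcl11 (27.3), Ccl7 (12.7), Ccr7 (6.02), Xcr1 (4.77) and Ccr1 (1.14). In KO-labelled males mouse 21 was highest for Cxcr3 (3.81 CPM) and lowest for Ccl21a (0.444).

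In KA males mouse 5 was highest for Cxcl9 (31.1 CPM), Ccl5 (23.4), Ccl19 (1.98), Cxcr3 (1.57), Xcr1 (1.35), Ccr7 (0.769) and Cxcl1 (0.659) and lowest for Cxcl14 (68.7), and mouse 43 was highest for Cxcr2 (0.0809) and Cxcl2 (0.0270). In KQ males mouse 8 was highest for Cxcl10 (44.8 CPM), Cxcl9 (38.2), Ccr2 (2.63), Ccl7 (1.72) and Xcr1 (0.763). In WT males mouse 10 was highest for Cxcr6 (1.42 CPM) and Ccl19 (0.619). In WT females mouse 20 was highest for Cxcl1 (0.385 CPM). In KA females mouse 16 was lowest for Ccl21a (0.187 CPM) and mouse 36 highest for Cxcl2 (0.0219). In Myc males mouse 1 was highest for Ccl21a (0.679 CPM) and Cxcr2 (0.0503) and mouse 41 for Ccr7 and Cxcl2 (0.0254 each). The values of Cxcl2 and Cxcr2, and that of Ccr7 in Myc males, rest on a few reads. KA males were mice 5, 25, 26 and 43, and KQ males were mice 8, 27, 28, 44 and 45. Mice 5 and 8 were thus each alone in the low range of mouse numbers. KO-labelled females were mice 13, 14, 33 and 34, so mouse 34 was not alone in its range. The part of the mouse number in these flagged values was not tested.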

How the results depend on the processing

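In KO-labelled against Myc mice, 31 to 34 genes rose in females and 34 to 36 in males when single mice were left out, and DESeq2 gave 33 and 35, the counts of edgeR. Other counts moved more. With only the compared groups in the fit, KA against KO-labelled gave 17 lower genes in females and 11 in males, KQ against KO-labelled females 2, KA against Myc females 8 and KQ against Myc females 3. Against Myc, DESeq2 gave 17, 17 and 16 higher genes in WT, KA and KQ females and 20, 25 and 25 in males. Without the mice with high Ttr, 0 genes were higher in KQ than in Myc females. Leaving out single mice gave ranges of 21 to 28 (females) and 29 to 33 (males) for WT lower than KO-labelled, 21 to 28 and 19 to 30 for KA, and 2 to 26 and 28 to 32 for KQ. Against Myc they were 3 to 13 and 9 to 14 for WT, 5 to 15 and 13 to 25 for KA, and 0 to 12 and 9 to 19 for KQ. KA against KQ, the sex difference and Myc females against males stayed at 0 in all these fits.

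Uncalled log2 fold changes of KO-labelled over Myc that changed sign were those of Ccl21a in females (0.10 without the mice with high Ttr, and from -0.55 to 0.23 without single mice), Cxcl12 in males (-0.00572 with any count above 0, -0.00943 with the term for mouse numbers, and from -0.024 to 0.041 without single mice) and Cxcr2 in males (from -0.37 to 3.48 without single mice). The cause was not tested. Genes with a few reads per library were limited by depth. No paired analysis was possible because each mouse has its own number.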
